A study of Mus musculus with 9 samples.

Results

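The Zfp genes are the mouse genes whose name is zinc finger protein followed by a number. Members were taken as all genes whose symbol, read through the Ensembl identifier in the GENCODE M21 annotation (mouse build GRCm38), was Zfp followed by digits and at most 1 letter. That annotation holds 400 such genes, of which 391 are protein coding, 8 are pseudogenes and 1 is a long intergenic RNA. Of the 12275 genes listed in either of the deposited tables, 324 were members. The table of balancing (BA) against avoiding (AV) mice listed 242 of them among 9872 genes, and the table of BA against approaching (AP) mice listed 318 among 11820 genes. Both tables held 236 members, and 76 annotated members were in neither.

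Each library came from YFP-positive cells sorted out of dissociated amygdala punches, with 1 mouse per library, of the Thy1-YFP line B6.Cg-Tg(Thy1-YFP)HJrs/J. All mice carried this transgene, in which the Thy1 promoter drives the fluorescent protein in subsets of projection neurons, and no drug or second allele is named in the labels. The groups are behavioural: mice were classed as BA (n = 3), AV (n = 3) or AP (n = 3) by how they resolved a conflict between approach and avoidance, and tissue was taken a month later. AV replicate 2 had been removed by the authors as an outlier, so AV was represented by replicates 1 and 3. The age of the mice is not given in the labels. The 3 BA mice serve in both tables, which were normalized separately, so the AV and AP comparisons share their controls and levels are compared only within a table.

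The labels call the cells pyramidal neurons, but 8 markers of that cell type, Slc17a7, Slc17a6, Neurod2, Neurod6, Tbr1, Rbfox3, Snap25 and Thy1, were listed in neither table. The markers Camk2a and Nrgn were listed in both tables and summed to 67.1 to 93.1 in the BA mice and 1785 to 3096 in the AV mice. All 6 oligodendrocyte markers were listed. Their sum was 158700 to 194700 in BA and 40660 to 67150 in AV, with 5 of 6 called lower. The astrocyte markers, 4 of 5 listed, summed to 2908 to 4297 in BA and 5659 to 10930 in AV, and the microglial markers, 3 of 6 listed, to 237.4 to 354.5 and 722.0 to 938.9. The endothelial markers, 2 of 4 listed, summed to 183.1 to 305.9 and 147.9 to 164.6. In the AP table the oligodendrocyte sum was 186300 to 236800 in BA and 192200 to 235000 in AP, the microglial sum, with 6 of 6 listed, was 966.2 to 1880.0 and 2449 to 4588, and Camk2a and Nrgn summed to 79.7 to 118.8 and 82.5 to 1798. No interneuron marker of 6 was listed in the AV table and 1 of 6 in the AP table. The libraries are therefore called YFP-positive cells below. AV replicate 1 and AP replicate 3 held the most members near the floor of detection, as given below. In such bulk samples, fewer cells of a type and less RNA per cell cannot be told apart. Normalized values summed to 3267967 to 3974274 per mouse in the AV table and 4589304 to 5072766 in the AP table.

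Most Zfp proteins are built from C2H2 zinc fingers, short folds that hold a zinc ion through paired cysteines and histidines and read DNA when they stand in tandem. Many also carry a KRAB domain, which recruits the corepressor Trim28 and with it the histone H3K9 methyltransferase Setdb1, a route best known for silencing retroelements and for keeping imprints. The family grew by tandem duplication, so many members lie side by side in clusters on a chromosome. Others have no KRAB domain and act as activators, as cofactors in chromatin complexes or as RNA-binding proteins.

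Promoters are shown for the cluster on chromosome 9, 20345136 to 20605409, where all 5 annotated members were listed and all had a negative log2 fold change in AV mice, together with Zfp580, which was higher in AV. They were chosen after the values were seen. Each is the run of 250 bases before the start of the gene in RefSeq on GRCm38.p6, printed 5′ to 3′ on the strand of the gene. Capitals mark matches, on either strand, to the ETS core CCGGAAG, the CCAAT box, the SP1 box GGGGCGGGG or the cAMP response element TGACGTCA. Zfp846 and Zfp580 hold none of the strings searched.
Zfp560 (chr9:20385159-20385408, minus strand): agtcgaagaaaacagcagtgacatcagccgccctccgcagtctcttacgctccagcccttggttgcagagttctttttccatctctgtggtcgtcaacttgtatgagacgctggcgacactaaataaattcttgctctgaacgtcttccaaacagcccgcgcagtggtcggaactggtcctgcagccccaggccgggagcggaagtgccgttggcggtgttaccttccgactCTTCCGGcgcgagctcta
Zfp26 (chr9:20460161-20460410, minus strand): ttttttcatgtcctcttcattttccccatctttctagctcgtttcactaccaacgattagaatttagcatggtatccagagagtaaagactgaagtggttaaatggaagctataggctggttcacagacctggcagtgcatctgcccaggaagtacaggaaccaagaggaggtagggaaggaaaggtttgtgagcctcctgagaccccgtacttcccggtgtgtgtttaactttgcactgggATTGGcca
Zfp426 (chr9:20492747-20492996, minus strand): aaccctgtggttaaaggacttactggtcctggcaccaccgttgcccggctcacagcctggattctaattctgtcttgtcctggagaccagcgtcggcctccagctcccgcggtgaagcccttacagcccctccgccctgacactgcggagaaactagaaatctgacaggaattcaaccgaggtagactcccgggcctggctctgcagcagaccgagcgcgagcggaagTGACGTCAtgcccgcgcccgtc
Zfp266 (chr9:20521420-20521669, minus strand): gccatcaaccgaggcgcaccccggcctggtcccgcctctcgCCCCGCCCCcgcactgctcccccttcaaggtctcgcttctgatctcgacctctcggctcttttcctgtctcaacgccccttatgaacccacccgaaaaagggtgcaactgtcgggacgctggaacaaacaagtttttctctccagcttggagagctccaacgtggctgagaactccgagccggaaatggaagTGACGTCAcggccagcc
Zfp846 (chr9:20581078-20581327, plus strand): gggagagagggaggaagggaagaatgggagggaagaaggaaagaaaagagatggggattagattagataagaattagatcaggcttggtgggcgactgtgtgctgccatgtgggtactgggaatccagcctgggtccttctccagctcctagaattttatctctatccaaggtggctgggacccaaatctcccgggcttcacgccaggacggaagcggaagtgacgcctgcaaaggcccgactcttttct
Zfp580 (chr7:5051282-5051531, plus strand): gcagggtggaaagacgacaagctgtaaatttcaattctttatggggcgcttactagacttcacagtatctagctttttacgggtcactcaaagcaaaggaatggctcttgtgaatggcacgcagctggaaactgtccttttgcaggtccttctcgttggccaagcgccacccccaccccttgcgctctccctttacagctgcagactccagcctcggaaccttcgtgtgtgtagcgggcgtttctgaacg

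RefSeq promoter entries were matched for 327 of the 400 members, 397 entries in all, and compared with all 32851 entries. Zfp promoters held a median of 11 CpG dinucleotides against 6 over all promoters, and their GC content was 55.7% against 53.2%. The ETS core CCGGAAG was in 16.9% of Zfp promoters and 6.91% of all, the CCAAT box in 46.1% and 33.8%, and the cAMP response element TGACGTCA in 3.53% and 1.55%. The ZFP143 string ACTACAA was in 5.79% and 2.81%, and the NRF1 string GCATGCGC in 4.28% and 2.26%. TATAAA was less frequent, in 6.30% of Zfp promoters and 12.4% of all. The shares were close for the SP1 box (9.57% and 10.4%), the E-box CACGTG (5.54% and 6.02%) and the YY1 string AAGATGGC (1.76% and 1.56%). A match is a string of letters and no evidence of binding, and the strings were picked after the expression values were known.

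Members were expressed at a lower level per length than listed genes in general. The median BA value per kb of exon was 20.1 for the Zfp genes of the AV table against 29.7 for all genes, and 21.9 against 30.9 in the AP table. Their transcripts had a median GC content of 46.0% and 45.2%, against 49.2% and 49.4% for all genes. Among the 391 members with a coding sequence, the median protein length was 572 residues and the median number of C2H2 fingers was 10, with a range of 0 to 36 and 13 members without a match. A KRAB A-box pattern (a tyrosine, an arginine or lysine, any residue, then valine and methionine, any residue and a glutamate) was found in 132 members, and in 200 when any residue was allowed after the tyrosine.

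When AV mice were compared with BA mice, 56 of the 242 listed Zfp genes were lower and 7 were higher in AV (limma on log2(value + 1), two-sided, adjusted p under 0.05 over all listed genes). Decreases were thus called for 23.1% of members against 16.2% of all 9872 genes, and increases for 2.89% of members against 13.6% of all genes. The excess of decreases rested on the full set of BA mice: without BA replicate 1, 2 or 3 decreases were called for 9.09%, 9.50% and 9.50% of members against 8.22%, 8.28% and 9.29% of all genes, shares that are close to each other. The median log2 fold change of the members was -0.28, with quartiles of -0.98 and 0.13 and a range of -3.13 to 1.55. All listed genes together had a median of -0.026. A negative log2 fold change was found for 158 members (65.3%), against 51.5% of all genes. Fold changes are on the log2(value + 1) scale and understate the change of low genes. The oligodendrocyte markers were lower and the astrocyte, microglial and Camk2a and Nrgn values higher in the same AV libraries, as given above, and their part in these results was not tested.

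The members' shift was also read mouse by mouse. The median difference of the members from their BA mean was -0.27 in AV replicate 1 and -0.44 in AV replicate 3, with 62.0% and 68.2% of members below the BA mean. In the BA mice it was -0.037, -0.031 and 0.083, with 55.0%, 60.7% and 35.1% of members below, so by this share BA replicate 2 was close to AV replicate 1. Over all genes the medians were 0.018 and -0.075 in the AV mice, so the 2 AV medians of the members lay below those of the 3 BA mice and below the all-gene medians of their own libraries. A value of 5.68 stands for 3 reads in the shallowest AP-table library. AV replicate 1 had 18 of 242 members no higher than that, AV replicate 3 had 5, and the BA mice 2 to 3. Over all listed genes the shares were 3.75% in AV replicate 1, 1.70% in AV replicate 3 and 1.24% to 1.31% in BA. In the AP table the members' medians were -0.079, -0.022 and 0.13 in BA and -0.018, -0.14 and -0.19 in AP, so AP replicate 1 lay within the BA range and the others below it.

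**Figure D1:**
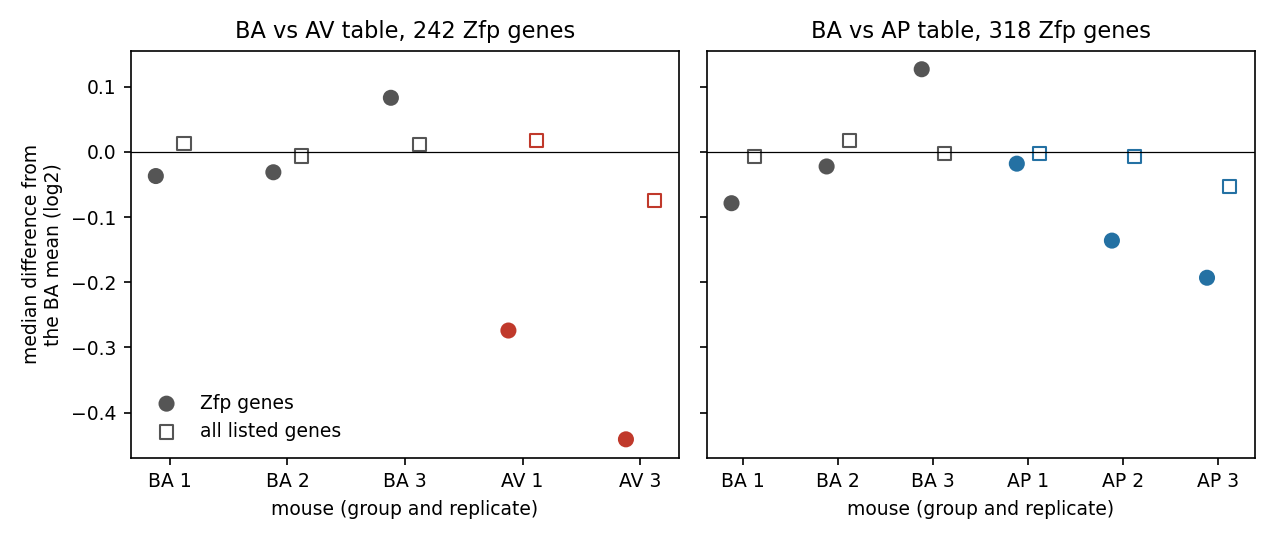
Median difference of the Zfp genes from their BA mean, on the log2(value + 1) scale, for each mouse of each table, beside the same median over all listed genes. The AV mice lie at -0.27 and -0.44, below the BA mice, and AP replicate 1 at -0.018 lies among the BA mice.

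**Figure D2:**
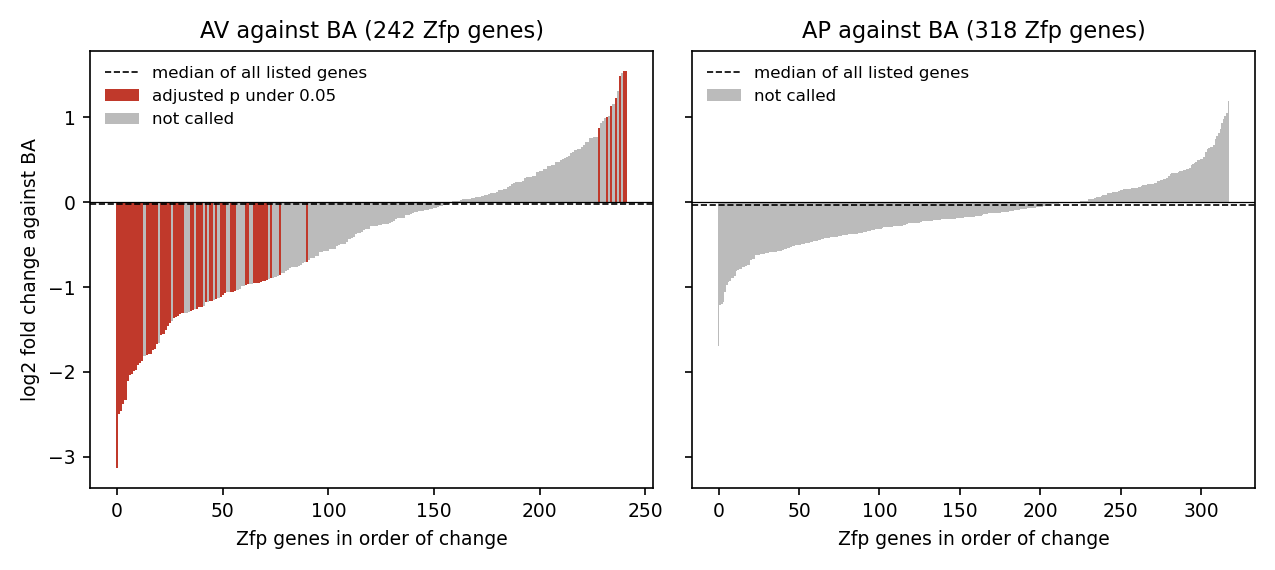
Log2 fold change of each listed Zfp gene as bars in order of change, AV against BA and AP against BA. Called genes are coloured, and a dashed line marks the median of all listed genes. In the AV panel 56 called genes lie below zero and 7 above, and in the AP panel none is called.

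The largest called decreases in AV were those of members with modest BA levels. Zfp758 (ENSMUSG00000044501.17, chr17:22361453-22377281, plus strand) had values of 103.9, 72.7 and 99.2 in the BA mice and 3.64 and 22.7 in AV replicates 1 and 3. Its log2 fold change was -3.13 ± 0.63 (SE), adjusted p = 0.0124 by limma with Benjamini-Hochberg adjustment. Zfp128 had 37.7, 53.1 and 61.3 in BA and 3.52 and 16.9 in AV, a log2 fold change of -2.50 ± 0.56. In both genes every AV value lay below every BA value, and AV replicate 1 was the lower of the AV mice. Leaving out AV replicate 1 gave log2 fold changes of -1.96 for Zfp758 and -1.51 for Zfp128, and leaving out AV replicate 3 gave -4.31 and -3.49.

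Zfp354a and Zfp354b, neighbours on chromosome 11, both fell in AV, while Zfp354c of the same cluster did not. Zfp354a, also known as Kid1 and a KRAB repressor, lies at chr11:51059257-51072799 and had 46.3, 41.3 and 39.3 in BA and 4.52 and 12.3 in AV, a log2 fold change of -2.33 ± 0.38 (adjusted p = 0.00649, limma with Benjamini-Hochberg adjustment). Zfp354b, at chr11:50921823-50931633, had 27.9, 20.3 and 28.4 in BA and 2.2 and 6.15 in AV, a log2 fold change of -2.46 ± 0.37. The pair is related in sequence: 14.3% of the 75-base stretches of Zfp354b were also in Zfp354a, so some reads could be assigned to either. Both calls stood in each of the fits without 1 BA mouse. Without AV replicate 1 the log2 fold changes were -1.70 for Zfp354a and -1.88 for Zfp354b, and without AV replicate 3 they were -2.97 and -3.04.

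Other large decreases followed the same order of mice. Zfp157, at chr5:138441468-138460694, was the most even, with 180.4, 187.3 and 183.5 in BA and 32.4 and 54.1 in AV, a log2 fold change of -2.11 ± 0.27 (adjusted p = 0.00398, limma with Benjamini-Hochberg adjustment). Zfp51 had 54.7, 46.3 and 45.9 in BA and 2.78 and 23.5 in AV, with a log2 fold change of -2.37 ± 0.70 that was -1.03 without AV replicate 1. Zfp954 had 42.5, 43.8 and 45.5 in BA and 4.79 and 19.8 in AV, with a log2 fold change of -2.03 ± 0.50 that was -1.11 without AV replicate 1. All 3 had no overlap between groups, with AV replicate 1 the lowest. Zfp979 had 17.2, 21.3 and 27.7 in BA and 2.63 and 7.51 in AV, a log2 fold change of -2.03 ± 0.40, but 23.6% of its 75-base stretches occur in other genes, so its level is uncertain.

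**Figure D3:**
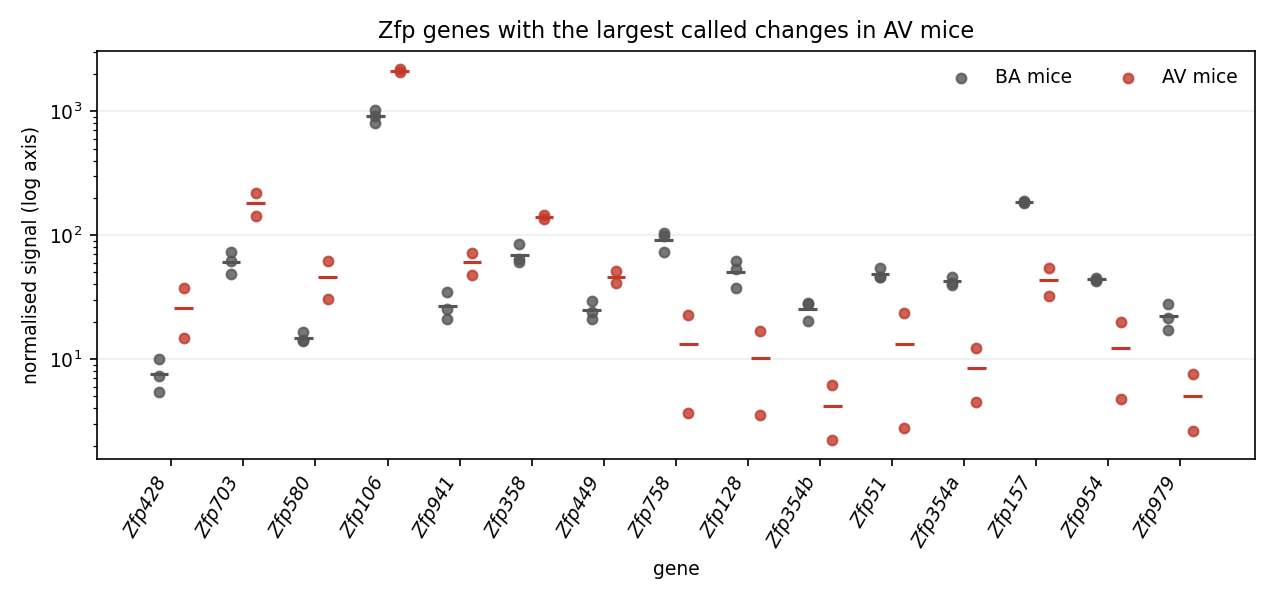
Value of the called Zfp genes with the largest decreases and increases in each BA and AV mouse, on a log axis. Zfp758 spans 72.7 to 103.9 in BA and 3.64 to 22.7 in AV, and Zfp703 48.2 to 72.5 in BA and 143.7 to 218.9 in AV.

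Zfp879 and Zfp54, both low members, did not exceed 5.68 in either AV mouse, and since the depth of this table is unknown that level need not be 3 reads here. Zfp879 had 16.2, 16.8 and 14.8 in BA and 3.02 and 4.93 in AV, and Zfp54 had 8.11, 7.59 and 6.22 in BA and 3.35 and 1.43 in AV. Both genes were called lower, without overlap between groups. The smallest adjusted p of a member, 0.00328 (limma with Benjamini-Hochberg adjustment), belonged to Zfp366, with 22.6, 26.6 and 21.6 in BA and 6.08 and 5.12 in AV and a log2 fold change of -1.90 ± 0.22. The AV values of Zfp366 were close to each other and far below the BA values.

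The calls of 17 decreases and 2 increases stood in each of the fits without 1 BA mouse. The 2 increases were Zfp703 and Zfp106. Beside the genes already given, Zfp870 had 76.4, 68.4 and 68.9 in BA and 24.6 and 24.1 in AV, a log2 fold change of -1.51 ± 0.21. Zfp882 had 61.4, 71.5 and 65.7 in BA and 26.6 and 17.6 in AV, a log2 fold change of -1.57 ± 0.25. In both the AV mice were near each other, without the gap seen in Zfp758. Zfp456 (-1.55), Zfp866 (-1.46), Zfp518a (-1.31), Zfp982 (-1.28) and Zfp14 (-1.16) were of the same kind. These 7 genes are named because their calls stood, which was known only after the values were seen. Of the 56 decreases, 44 had a log2 fold change of at least 1 in size, and so did 6 of the 7 increases. The smallest decrease that was called was Zfp462, with 914.3, 873.8 and 902.3 in BA and 535.8 and 568.5 in AV, a log2 fold change of -0.70 ± 0.21.

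The 7 increases called in AV had log2 fold changes of 0.88 to 1.55. Zfp703, a transcriptional corepressor of the NET family, had 62.2, 48.2 and 72.5 in BA and 218.9 and 143.7 in AV, a log2 fold change of 1.54 ± 0.29 (adjusted p = 0.0101, limma with Benjamini-Hochberg adjustment). Zfp106, an RNA-binding protein needed for the upkeep of motor neurons, had 807.2, 1013 and 912.4 in BA and 2178 and 2060 in AV, a log2 fold change of 1.22 ± 0.22. Both lay wholly above the BA range, and both calls stood in each fit without 1 BA mouse. Zfp106 shares exon sequence with Gm26899 on the opposite strand and Zfp703 with the antisense gene Gm45371, and the library kit keeps strand.

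Zfp580, at chr7:5051538-5053723, had 14.0, 16.4 and 14.2 in BA and 61.4 and 30.7 in AV, a log2 fold change of 1.49 ± 0.32 (adjusted p = 0.0157, limma with Benjamini-Hochberg adjustment). Zfp428 had 9.94, 7.33 and 5.43 in BA and 14.7 and 37.3 in AV, a log2 fold change of 1.55 ± 0.42. It rested on AV replicate 3, without which its log2 fold change was 0.91 and the call was lost. Zfp941 rose from 20.95, 25.3 and 34.5 in BA to 72.3 and 48.0 in AV, Zfp358 from 84.1, 64.2 and 60.8 to 144.1 and 134.1, and Zfp449 from 21.1, 29.3 and 23.8 to 51.7 and 41.0. The log2 fold change was 1.13 ± 0.30 for Zfp941, 1.0 ± 0.24 for Zfp358 and 0.88 ± 0.25 for Zfp449. In each gene both AV mice lay above the BA mice. The call of Zfp449 was lost with median-centred mice and with a variance prior that follows mean expression. Without AV replicate 1 the calls of Zfp941 and Zfp449 were lost, with log2 fold changes of 0.84 and 0.72, and that of Zfp580 was 1.0.

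Several of the most abundant members fell in AV. Per kb of exon, the 6 highest in BA were Zfp488, Zfp536, Zfp706, Zfp280c, Zfp281 and Zfp445, with BA means per kb of 329, 192, 189, 182, 179 and 144. Zfp488, a regulator of oligodendrocyte differentiation that acts with Olig2, had 1483, 1218 and 1546 in BA and 298.6 and 421.9 in AV, a log2 fold change of -1.99 ± 0.25 (adjusted p = 0.00397, limma with Benjamini-Hochberg adjustment). Zfp536, a repressor of neuronal differentiation, had 1739, 1987 and 1579 in BA and 484.6 and 583.0 in AV, a log2 fold change of -1.73 ± 0.23. In both genes the AV values lay below every BA value, and both calls stood without any single BA mouse. The oligodendrocyte markers of the same libraries were lower by a median log2 fold change of -2.03, and their part in these decreases was not tested.

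Zfp281, a regulator of pluripotency, had 841.5, 1033 and 779.9 in BA and 185.4 and 341.4 in AV, a log2 fold change of -1.80 ± 0.31. Zfp445, a KRAB protein that maintains imprints, although its sequence did not match the A-box pattern above, had 1078, 981.2 and 1149 in BA and 451.8 and 432.7 in AV, a log2 fold change of -1.27 ± 0.21. Zfp280c, related to the fly suppressor of hairy wing, had a log2 fold change of -1.36 ± 0.29. In these 3 genes all AV values lay below all BA values. Zfp706, which acts in the exit of stem cells from self-renewal, was the exception among the 6, with a log2 fold change of 0.052 that was not called.

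Members were grouped by known role. Of 9 RNA-binding or RNA-processing members, 8 were listed in the AV table, with a median log2 fold change of -0.041 and 1 called higher, Zfp106. Zfp385a, a double-stranded RNA-binding cofactor of p53, had the largest increase in the list, 1.52, and Zfp638 (NP220) the largest decrease, -0.70, and neither was called. Of 16 members with roles in neural development, 13 were listed, with a median of -0.36. In that list Zfp703 rose, and Zfp536, Zfp462, Zfp369 and Zfp110 fell. Zfp369 and Zfp110, which bind the p75 neurotrophin receptor, had log2 fold changes of -1.16 ± 0.25 and -0.97 ± 0.21.

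Of 9 members tied to imprinting or the silencing of retroelements, 4 were listed in the AV table, with a median log2 fold change of -1.02 and 2 called lower, Zfp445 and Zfp979. Zfp809, which silences retroviruses at the proline primer binding site, had -0.19 and was not called. Of 14 cofactors of chromatin complexes, 12 were listed, with a median of -0.20 and 3 called lower, Zfp280c, Zfp518a and Zfp280d. Zfp644, a partner of the methyltransferases G9a and GLP, had 0.39 and was not called. All 10 general activators and signalling factors were listed, with a median of -0.31 and 2 called lower, Zfp281 and Zfp410. Zfp410, an activator of Chd4, had a log2 fold change of -1.42 ± 0.22 and Zfp148 one of 0.70 that was not called. Of all genes 16.2% were called lower, and these short lists were not tested against that share.

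Genes tied to KRAB repression, which are not members, were counted the same way. They are mostly partners of the KRAB domain, but Rbak is itself a KRAB zinc finger protein. The AV table held 22 genes of that machinery, with a median log2 fold change of 0.039, 1 called higher and 5 called lower. The shares over all genes were 13.6% called higher and 16.2% called lower. Trim28, the KRAB corepressor, had 0.41 and Setdb1 -0.56, neither called. Sumo2 rose by 0.97 on the log2 scale, and Rbak (-1.70), Fam208a (-1.06), Morc2a (-0.87), Trim24 (-0.86) and Atf7ip (-0.82) fell. Other zinc finger families had medians of -0.28 for 28 Zbtb genes (3 called higher, 5 lower), -0.61 for 8 Zscan genes (0 and 4), -0.38 for 7 Zkscan genes (0 and 2) and -0.51 for 5 Klf genes (1 and 1).

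When AP mice were compared with BA mice, no Zfp gene passed an adjusted p of 0.05 (limma with Benjamini-Hochberg adjustment), where 0.00846% of all 11820 genes did, a single gene. The smallest adjusted p of a member was 0.258. At an unadjusted p under 0.05 there were 13 members lower (4.09%, against 2.77% of all genes) and 7 higher (2.2%, against 4.99%). Groups did not overlap for 30 members that were lower in AP (9.43%, against 6.45% of all genes) and 12 that were higher (3.77%, against 5.64%). The median log2 fold change of the 318 members was -0.17, with quartiles of -0.39 and 0.071, against -0.032 for all genes. A negative value was found for 220 members (69.2%), against 53.5% of all genes. Both comparisons use the same BA mice.

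The smallest p in AP belonged to Zfp580. It had 18.0, 18.4 and 15.5 in BA and 31.6, 50.9 and 42.0 in AP, a log2 fold change of 1.19 ± 0.24 (adjusted p = 0.258, limma with Benjamini-Hochberg adjustment). All AP mice lay above all BA mice, and without any single mouse the log2 fold change was 1.04 to 1.37. Zfp472 had 13.7, 23.5 and 31.4 in BA and 35, 41.7 and 40.9 in AP, a log2 fold change of 0.82 that did not pass. Zfp36 (tristetraprolin), which binds AU-rich elements and speeds mRNA decay, had 618.8, 362.2 and 623.6 in BA and 1109, 610.5 and 1826 in AP, a log2 fold change of 1.05 with overlapping groups. Zfp868 and Zfp697 had 0.63 and 0.78. None of the 5 passed the adjusted threshold.

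On the other side, Zfp383 had 116.0, 130.1 and 173.6 in BA and 94.1, 75 and 60.4 in AP, a log2 fold change of -0.86 ± 0.26 (adjusted p = 0.442, limma with Benjamini-Hochberg adjustment). In AV mice, in the other table, its log2 fold change was -0.91 ± 0.26 and was called. Zfp354b had 30.1, 21.5 and 33.1 in BA and 13.6, 18.8 and 16.8 in AP, a log2 fold change of -0.74 ± 0.25. In both genes the AP mice lay below the BA mice. Zfp967 had 93.4, 52.0 and 65.5 in BA and 32.5, 41.4 and 25.1 in AP, a log2 fold change of -1.06, but all of its 75-base stretches also occur in Zfp968, so its level is uncertain. Zfp459 and Zfp772 had -0.67 and -0.59. None of these passed either.

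**Figure D4:**
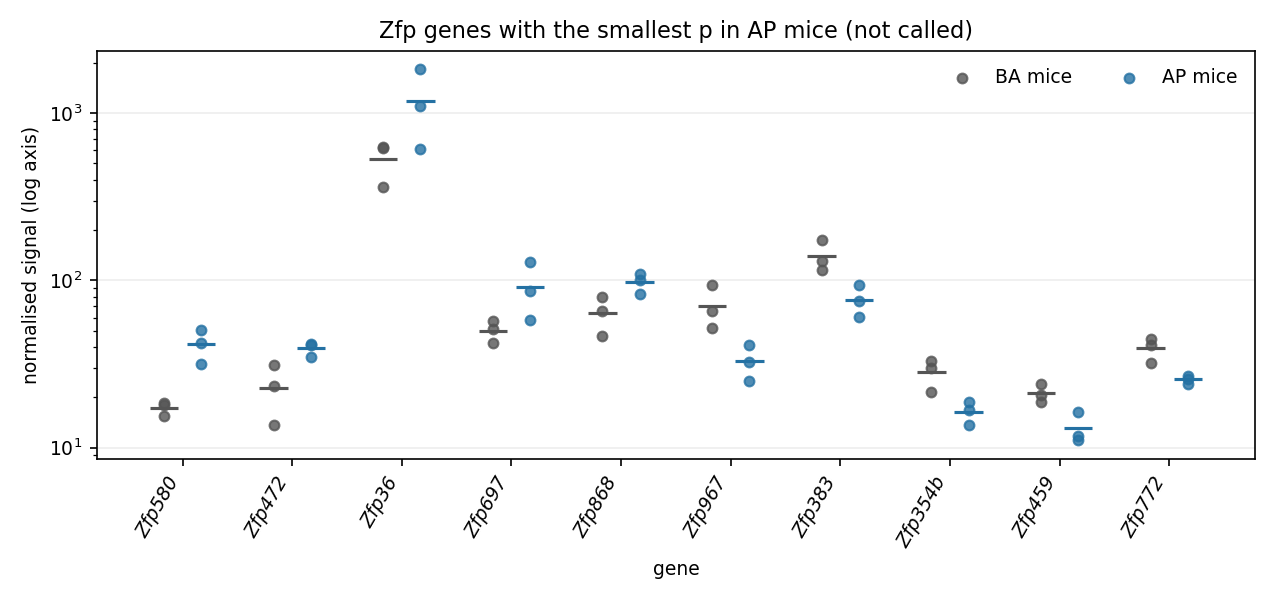
Value of the 5 Zfp genes with the smallest p in each direction in each BA and AP mouse, on a log axis. Zfp580 spans 15.5 to 18.4 in BA and 31.6 to 50.9 in AP, and Zfp383 116.0 to 173.6 in BA and 60.4 to 94.1 in AP.

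The abundant members that fell in AV had smaller values in AP. Zfp488 had a log2 fold change of -0.12, Zfp536 of -0.29, Zfp280c of -0.24, Zfp281 of -0.25 and Zfp445 of -0.41 in AP, and none was called. The role lists had AP medians of 0.17 for 9 RNA-binding members, -0.18 for 15 neural members, -0.32 for 5 imprinting and retroelement members, -0.048 for 13 chromatin cofactors and -0.053 for 10 general activators, with no member called. Zfp711, a gene of X-linked intellectual disability, had the largest increase of the neural list, 1.02, with 26.5, 8.15 and 35.1 in BA and 33.8, 40.3 and 51.7 in AP. The genes tied to KRAB repression, 23 listed, had a median of -0.15.

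AP replicate 3 stood apart at the low end. It held 9 of 318 members with no more than 3 reads, against 0 to 2 in the other mice of its table. Over all listed genes the share was 1.55% in AP replicate 3 and 0.321% to 0.829% in the others. Zfp647 had 22.2, 17.4 and 16.7 in BA and 11.1, 16.9 and 2 in AP, the last being the lowest value the table holds and a library with no read of the gene. Zfp7 had 65.9, 33.9 and 68.9 in BA and 47.4, 33.0 and 6.95 in AP. Their log2 fold changes of -1.18 and -1.21 became -0.42 and -0.43 without AP replicate 3.

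Chromosome 7 holds the most members, 95 of the 400. Of these, 57 were listed in the AV table, with a median log2 fold change of -0.28, 13 called lower and 3 higher, against a median of -0.024 for the 667 other genes of the chromosome. Chromosome 17 has 45, of which 27 were listed, with a median of -0.28, 6 called lower and 0 higher, against -0.090 for 435 other genes. Chromosome 13 has 38, of which 15 were listed, with a median of -0.49, 5 called lower and 0 higher, against 0.074 for 359 others. Chromosome 8 departed from this, with a median of 0.039 over 17 listed members, 3 called lower and 2 higher. So did chromosome 2, with a median of -0.014 over 14 of 28 members, 2 called lower and 1 higher. Chromosome 15 had -0.017 over 9 listed members. Medians were above 0 on chromosomes 3, 10 and 16 as well, with 2 to 3 listed members each. Beside these counts, 16.2% of all genes were called lower and 13.6% higher. In the AP table the medians were -0.22 over 78 members on chromosome 7, -0.28 over 28 on chromosome 13 and -0.019 over 39 on chromosome 17.

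Many members lie in clusters. Annotated members were chained with at most 500 kb between neighbours, and chains with at least 3 members listed in a table were kept. This gave 27 clusters of 3 to 24 genes that hold 220 of the 400. In the AV table, 17 clusters had at least 3 listed members, 105 in all. The median log2 fold change was below 0 in 15 of them and above 0 in 2. All listed members had a negative value in 5 clusters and a positive value in none. In the AP table, all 27 clusters had at least 3 listed members, 176 in all, with the median below 0 in 23 and above in 4, and all members negative in 6. Since 65.3% of all members in AV and 69.2% in AP were negative, many small clusters would lie below 0 from that alone. Neighbouring members had the same direction in 63.1% of pairs in AV and 64.6% in AP, against 54.7% and 57.4% from those shares. Spearman's rho between neighbouring members was 0.20 in AV and 0.029 in AP, against 0.092 and 0.053 over all genes.

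Members inside these clusters had a lower median than members outside, which include those of chains that were not kept. In AV the 124 listed members in clusters had a median log2 fold change of -0.48, with 35 called lower and 2 higher, and the 118 outside had -0.21, with 21 and 5. The 85 other listed genes that lie within the cluster spans had a median of -0.12, with 15 called lower and 11 higher. Among all genes 16.2% were called lower and 13.6% higher. In AP the medians were -0.20 for 176 members in clusters, -0.11 for 142 outside and -0.095 for 107 other genes within the spans. Neighbours are related in sequence and do not count as separate observations.

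The cluster on chromosome 11, 50811086 to 51072799, had the lowest median in AV, -2.06 over 4 listed members, of which Zfp354a, Zfp354b and Zfp879 fell. Zfp354c, the other listed member, had a log2 fold change of 0.44 and was not called. In AP the 5 listed members of this cluster had a median of -0.40, all negative and none called. The cluster on chromosome 15, 76851609 to 76925448, had a median of -1.67 in AV and -1.18 in AP over Zfp251, Zfp7 and Zfp647. Zfp7 and Zfp647 fell in AV, with log2 fold changes of -1.74 ± 0.38 and -1.67 ± 0.44, and Zfp251 was at -0.02. Without AV replicate 1 the AV median was -0.93 and 2 of 3 were negative, and without AP replicate 3 the AP median was -0.43. Zfp7 shares 11.1% of its stretches with other genes and overlaps Gm49527 on the same strand.

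On chromosome 9, 20345136 to 20605409, the cluster whose promoters are printed above had a median log2 fold change of -0.64 in AV and -0.13 in AP. Zfp26 and Zfp846 fell in AV, by 1.07 and 1.24 on the log2 scale, and Zfp266 (-0.64), Zfp560 (-0.15) and Zfp426 (-0.04) were not called. The cAMP response element stands in the promoters of Zfp426 and Zfp266, which were not called, and not in those of Zfp26 and Zfp846. On chromosome 7, 27689340 to 28380253, the 4 listed members had a median of -0.87 in AV and remained negative without any single mouse, with Zfp626 (-1.14) called. The clusters on chromosome 8, 69209038 to 69791178, and on chromosome 2, 150114406 to 150485091, had medians of -0.77 and -0.77, with Zfp866 (-1.46) and Zfp442 (-1.92) called. Without AV replicate 1 Zfp442 was at -0.91 and Zfp647, on chromosome 15, at -0.93, and the calls of Zfp26 (-0.93) and Zfp626 (-0.77) were lost. In each fit without 1 BA mouse the calls of Zfp442, Zfp26, Zfp626 and Zfp846 were lost. Of Zfp7 and Zfp647, on chromosome 15, neither was called without BA replicate 1 or 3, and 1 was without BA replicate 2. The clusters on chromosomes 2, 8 and 9 had 1 positive member in some of the fits without 1 mouse. Medians above 0 in AV were found for 2 clusters, both on chromosome 7. The cluster at 6131491 to 6396915 had a median of 0.47, 4 of 5 positive and none called, and the one at 29768552 to 30169750 had a median of 0.0091 over 11 listed members, 6 positive and 5 negative, with Zfp383 and Zfp14 called lower.

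**Figure D5:**
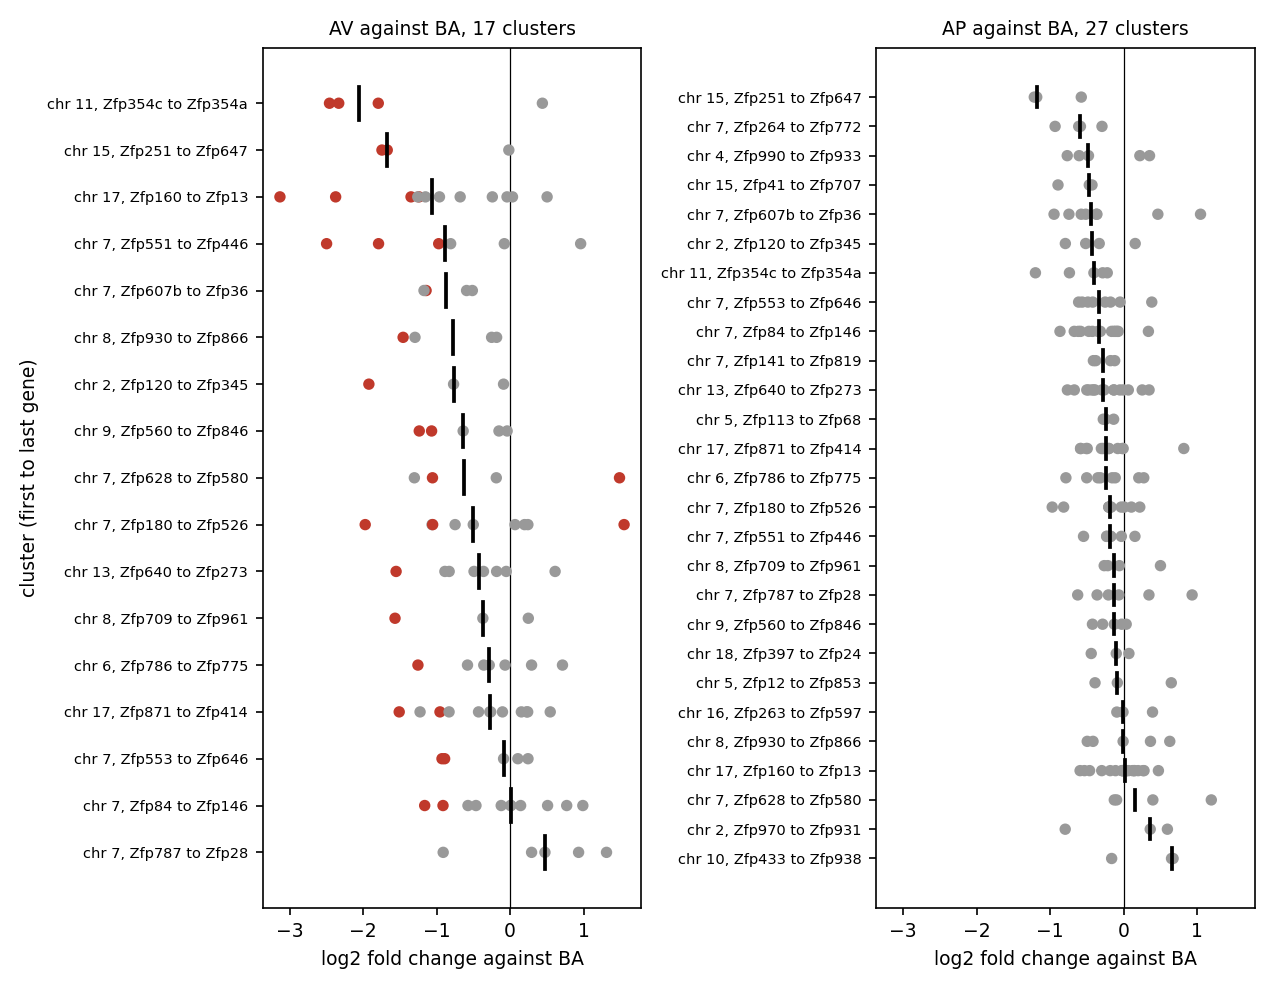
Log2 fold change in AV of each listed Zfp gene in each chromosomal cluster with at least 3 listed members. Coloured points are called, grey points are not, and black bars are medians, which lie below zero in 15 of 17 clusters.

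The other clusters with all listed members negative in AP were on chromosome 7, 6977246 to 7209998 (median -0.60) and 42473386 to 43618285 (-0.28), on chromosome 15, 75616679 to 75975868 (-0.47), and on chromosome 5, 138139702 to 138619761 (-0.24). These medians also moved with single mice: the first was -0.17 and the cluster on chromosome 15 was -0.34 without AP replicate 3, and the other on chromosome 7 was -0.043 without BA replicate 3, with 2 of 4 negative. The cluster on chromosome 5 was -0.087 without AP replicate 2. No member of them was called.

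The chromosome 17 cluster, 21008903 to 23599487, is among the widest. It has 23 annotated members, 12 of which were listed in the AV table, with a median of -1.06 and 4 called lower, Zfp758 and Zfp51 among them. The 5 other listed genes within its span had a median of -1.61 in AV, all 5 negative, so the decrease there was not particular to the members. In the AP table, 20 members were listed, 10 positive and 10 negative, with a median of 0.015, and the 13 other genes within the span had -0.33.

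Members were also grouped by features of their proteins. The calls below are in AV, where 16.2% of all genes were called lower and 13.6% higher. The 130 members with 10 or more fingers had a median log2 fold change of -0.50, with 37 called lower and 0 higher, against -0.13 for 89 members with 3 to 9 fingers (18 lower, 5 higher) and -0.13 for 22 with fewer (1 lower, 2 higher). The 78 members with the KRAB pattern had a median of -0.48 (22 lower, 1 higher), and the 163 without it -0.26 (34 lower, 6 higher). With the looser pattern the medians were -0.64 for 107 members (32 lower, 1 higher) and -0.14 for 134 (24 lower, 6 higher). In AP the KRAB medians were -0.26 for 107 members and -0.12 for 208. Members with at most 5% of their stretches in other genes, 210 in the AV table, had a median of -0.26 (47 lower, 7 higher).

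The fold change varied with GC content and level, for the members as for other genes. In AV, members in the lowest, middle and highest of 3 bins of GC content had medians of -0.45, -0.57 and 0.019, against -0.15, -0.041 and 0.14 for other genes. By BA level, members had medians of -0.12, -0.50 and -0.70 from the lowest to the highest bin, against 0.29, 0.028 and -0.28. The level and the fold change share the same BA values, so part of this fall with level is built in. In each bin of either property the Zfp median lay below that of the other genes. In AP the medians by GC content were -0.18, -0.18 and -0.086 for members and -0.023, -0.054 and -0.0089 for others. Across the 242 members, Spearman's rho of the AV log2 fold change with GC content was 0.24. These points share the same libraries.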

How the data were processed

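The authors deposited 2 tables of TMM-normalized signal per gene, BA with AV and BA with AP. Per the labels and the methods of the study, Ovation SoLo libraries of stranded paired reads were converted with bcl2fastq 2.20 and quantified with Salmon 1.2 on GRCm38.p6. The methods give 9872 genes after filtering, the size of the AV table, and name ARSyN batch correction next. They do not say whether the AP table, with 11820 genes, was corrected too. The spread between mice may therefore not be alike in the 2 tables, and calls are read within a table. Deposited values are not counts, so limma 3.58.1 (R 4.3.3) was run on log2(value + 1) over all listed genes of each table, with no covariates and Benjamini-Hochberg adjustment at 0.05, two-sided. The GENCODE M21 annotation matched 9871 of 9872 and 11783 of 11820 identifiers. In the AP table the lowest value, 2, holds no read and 1 read is worth 0.708 to 1.226, giving 3817185 to 6720900 reads per mouse. The depth of the AV table is unknown. Replicates are mice, and p-values measure only the spread between them. Whether duplicate reads were removed is not given in the sources used here, and floors cover counting error only.

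Named genes were the called members with the largest changes (up to 8 a direction in AV, with a group mean of at least 20), the 5 with the smallest p a direction in AP, the 6 highest per kb, and members of role lists. The members, lists, motifs and features were chosen with earlier results of these data known. Shared sequence was counted as 75-base stretches of a gene's transcripts present in other genes' transcripts. Python 3.11.15, numpy 2.4.6, pandas 2.3.3 and matplotlib 3.10.9 were used, and the fit was tested on simulated data. Alternatives changed the pseudocount, filter, centring, variance prior, threshold, replicate block and mice used.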

Additional observations from a re-analysis of the deposited data

How the results depend on the processing

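Decreases outnumbered increases among the Zfp genes of the AV comparison in every alternative run. The counts of 7 higher and 56 lower became 1 and 15 at an adjusted p under 0.01, and 0 and 13 with the replicate number as a block, where the median was -0.39 and the share of members called lower was 5.37% against 5.12% of all genes. Leaving out each mouse in turn gave 2 to 18 higher and 22 to 72 lower, with medians of -0.44 to -0.26. The low counts came from leaving out a BA mouse (BA replicate 1: 3 and 22, replicate 2: 2 and 23, replicate 3: 4 and 23), where the members' shares called lower were 9.09% to 9.50% against 8.22% to 9.29% of all genes, and leaving out AV replicate 1 or 3 gave 15 and 63 or 18 and 72. Those last fits assume that the lone AV mouse varies like the BA mice. The deviations of same-numbered mice had r of -0.060 and -0.039 for AV and 0.020, 0.121 and 0.081 for AP. These values are small, but each AP mouse correlated best with the BA mouse of its number. With 2 AV mice the deviations mirror each other, so the AV values cannot show whether numbers mark a batch. Whether same-numbered mice share more than a number was not tested. In AP no member was called in any alternative, and the median ranged from -0.22 to -0.098 without each mouse.

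Small values changed sign. In AV, Zfp120 was 0.027 with the replicate block and Zfp706 -0.026 with median-centred mice. Without each mouse, AV values spanned -0.43 to 0.15 for Zfp120, -0.25 to 0.21 for Zfp251, -0.11 to 0.025 for Zfp426, -0.34 to 0.039 for Zfp560, -0.052 to 0.11 for Zfp706, -1.24 to 0.87 for Zfp809, -0.63 to 0.26 for Zfp868 and -0.69 to 0.19 for Zfp964. AP values spanned -0.53 to 0.038 for Zfp280b, -0.72 to 0.17 for Zfp395, -0.34 to 0.061 for Zfp488, -0.19 to 0.043 for Zfp706, -0.42 to 0.068 for Zfp719, -0.29 to 0.068 for Zfp809 and -0.35 to 0.046 for Zfp976. The cause of these changes was not tested. The 2 AV mice and the unknown depth of that table limit the precision of low members.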
